A study of Canis lupus familiaris with 7 samples.

Results

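The small leucine-rich proteoglycans are secreted matrix proteins with a core of leucine-rich repeats, most of which carry chondroitin, dermatan or keratan sulfate chains. They bind collagen fibrils and govern how these assemble, and several of them also bind growth factors of the TGF-beta and BMP families. In bone they are laid down by cells of the osteoblast lineage, and the fibrous tissues around bone are rich in them as well. Of the 24580 genes listed in the RNAseq data of canine osteosarcoma (OSA), the 10 genes of this family named by symbol were taken, and each symbol matched 1 listed gene. They comprise asporin (*ASPN*), biglycan (*BGN*) and decorin (*DCN*) of class I, lumican (*LUM*), fibromodulin (*FMOD*), prolargin (*PRELP*), osteomodulin (*OMD*) and keratocan (*KERA*) of class II, and osteoglycin (*OGN*) and epiphycan (*EPYC*) of class III. RNA came from 3 OSA tumor samples of dogs (T1, T3 and T10) and 4 samples of grossly non-malignant bone (N1, N3, N8 and N9), all from surgical amputation or from soon after euthanasia, with the non-tumor pieces cut next to tumors. No treatment, breed, age or sex is given per sample. The authors call the non-tumor tissue matched, but no source used here states that a shared number, as in N1 and T1, marks 1 dog. Values are in FPKM (fragments scaled to transcript length and to the mapped fragments of the library), so that levels of different genes can be set side by side.

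The libraries differed in cell make-up and depth. The summed FPKM of 8 osteoblast genes was 115 to 1509 in non-tumor and 940 to 3592 in tumor samples, with none at 0 in any sample. In N8, however, *SPP1* made up most of the sum at 95.7 FPKM. The others there were *BGLAP* at 7.90, *RUNX2* at 6.22, *IBSP* at 3.35, *SOST* at 0.746, *PHEX* at 0.674, *DMP1* at 0.479 and *SP7* at 0.0833. *SP7* was also under 1 FPKM in N9 (0.702) and T3 (0.991). The summed FPKM of 11 erythroid genes was 38.6 in N1 and 285 to 5259.9 in the other non-tumor samples, against 34.95 to 124 in tumor samples, where between 0 and 3 of them were at 0. That of 14 skeletal muscle genes was 89.5 in N1 and 1109 in N3 but 94689.9 in N8 and 61807 in N9, against 20.9 to 31.6 in tumor samples, with 2 of them at 0 in N9 and 1 each in T1 and T3. N1 had the lowest sum of both lists among the non-tumor samples, but it was not alone, since N3 also lay far below N8 and N9 in muscle genes and N9 far below N3 and N8 in erythroid genes. Calls of the proteoglycan genes are given with and without N1. The fragment count that a given FPKM stands for, read from the steps between the lowest values, was 0.545 (N8) to 1.45 (T10) times that of N1. Because these are bulk samples, fewer cells of a type and less RNA per cell cannot be told apart.

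Most of the family lies in clusters of adjacent genes. In the CanFam3.1 intervals of the authors' table, *EPYC* (ENSCAFG00000006129), *KERA* (ENSCAFG00000006134), *LUM* (ENSCAFG00000006138) and *DCN* (ENSCAFG00000006142) follow each other on chromosome 15 from 31670414 to 31877417, with 0 listed genes wholly between neighbours. *FMOD* (ENSCAFG00000009459, 103799 to 112448) and *PRELP* (ENSCAFG00000009462, 198591 to 213796) are neighbours on chromosome 38 in the same sense, and *BGN* (ENSCAFG00000019189) stands alone on the X chromosome from 121330384 to 121335433. *ASPN* (ENSCAFG00000002307), *OMD* (ENSCAFG00000002309) and *OGN* (ENSCAFG00000002313) share 1 interval of chromosome 1, from 98800119 to 99019334, which covers 6 listed genes. The other genes in it are *ECM2*, a further leucine-rich matrix protein, the kinetochore gene *CENPP* and a U6 RNA. RefSeq's UU_Cfam_GSD_1.0 annotation, another assembly, gives the order *ECM2*, *ASPN*, *OMD*, *OGN*, all within the span of *CENPP*. The library kit kept the strand, but whether strand was used in counting is not given in the sources used here, so fragments of overlapping genes may have been shared out. *CENPP* itself ranged only from 1.68 to 14.1 FPKM over the 7 samples and the U6 RNA was listed at 0 in all of them.

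Tumor was compared with non-tumor tissue on log2(FPKM + 1) with limma over the 13507 genes whose mean over the samples reached 1 FPKM, and 9 of the 10 proteoglycan genes passed this filter. The call required at least a 2-fold difference together with p under 0.05 before adjustment, and 6.86% of all tested genes were called, 3.28% as higher and 3.58% as lower. Of the 9 genes, 1 was called, *OGN*, as higher in tumor, and by adjusted p under 0.05 the count was 0, as it was over all genes tested. At an unadjusted p under 0.05 alone the count was also 1. Of the log2 fold changes, 6 were above 0 and 3 below 0, with a median of 1.70 against -0.02 over all tested genes. This median was 0.47 without T10, 1.14 without T1, 3.16 without T3 and 0.72 with the sample number as a fixed block. Every gene of the 10 had tumor and non-tumor values that overlapped, while the groups did not overlap for 5.85% of all tested genes. The number of calls was 4 of 9 without N1 (*ASPN*, *BGN*, *OGN* and *OMD*), a fit in which 14.8% of all genes were called. Without T3 it was also 4 (*ASPN*, *DCN*, *LUM* and *OGN*), against 4.46% of all genes, and without T10 it was 1 (*OGN*), against 3.14%.

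**Figure D1:**
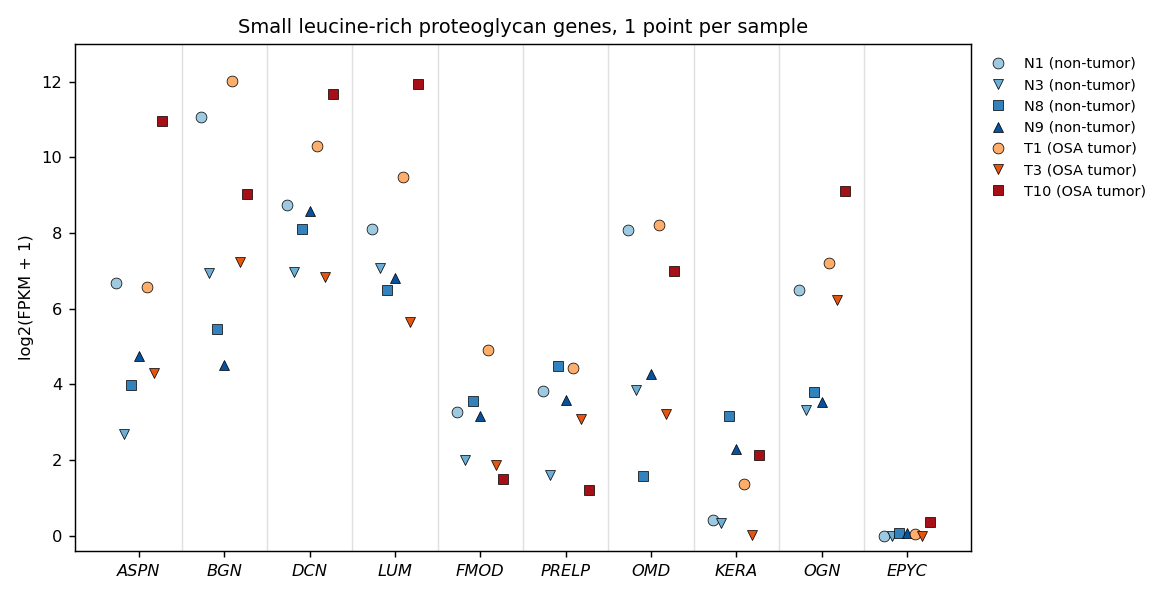
Expression of the 10 proteoglycan genes as log2(FPKM + 1), with 1 point per sample, non-tumor samples in blue and OSA tumor samples in orange to red. T10 had the highest value in 5 genes, including *ASPN* (2014 FPKM) and *LUM* (3925 FPKM), while it had the lowest value in *FMOD* and *PRELP*.

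*OGN*, whose product osteoglycin is a keratan sulfate proteoglycan first known from bone, was at 548 FPKM in T10, 148 in T1 and 74.4 in T3. In non-tumor samples it was at 89.2 FPKM in N1, 12.8 in N8, 10.6 in N9 and 9.11 in N3. All tumor values thus lay above N3, N8 and N9, and T3 alone lay below N1. The means were 257 ± 255 FPKM (SD, n = 3) and 30.4 ± 39.2 FPKM (SD, n = 4). The log2 fold change was 3.23 (standard error, SE, 0.91, 95% interval 1.17 to 5.28, unadjusted p = 0.00603 and adjusted p = 0.693 from limma). Exact permutation of the samples over their 35 splits into 4 and 3, two-sided, gave p = 0.114, where the smallest p this design allows is 0.0571. *OGN* stayed called in each of 7 fits that omitted a sample, with log2 fold changes from 2.44 without T10 to 3.96 without N1. It was not called with the sample number as a fixed block, where the log2 fold change was 1.81 (unadjusted p = 0.0686 from limma).

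Of the class I genes, *ASPN* encodes asporin, which binds collagen and TGF-beta and, unlike its relatives, lacks glycosaminoglycan attachment sites. It was at 2014 FPKM in T10, 95.1 in T1 and 18.8 in T3, against 102 in N1, 26.0 in N9, 14.8 in N8 and 5.47 in N3. T10 alone held 94.6% of the tumor sum, T1 lay just under N1, and T3 lay within the non-tumor range. The log2 fold change was 2.76 (SE 1.45, 95% interval -0.51 to 6.03, unadjusted p = 0.0887 from limma, and 0.286 by exact permutation) and was not called. It was 0.92 without T10, 3.48 without N1 and 4.25 without T3, and the last pair of these passed the threshold. After each library was rescaled to a common FPKM sum it was 2.96, beside a median of 0.12 over all genes, and also passed, in a fit that called 5.66% of all genes. The same held with sample weights (3.63), where 13.7% of all genes were called. With the sample number as a fixed block the log2 fold change of *ASPN* was 0.76 and was not called (unadjusted p = 0.304 from limma).

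*BGN*, the gene of biglycan, which carries a pair of glycosaminoglycan chains and is abundant in bone matrix, ranged widely among the non-tumor samples. Its values were 21.8 FPKM in N9, 43.0 in N8, 122 in N3 and 2147 in N1, so that N1 made up 92.0% of the non-tumor sum. In tumor it was at 4165 FPKM in T1, 520 in T10 and 150 in T3. The log2 fold change was 2.43 (SE 1.59, limma p = 0.158 before adjustment, exact permutation p = 0.286). Without N1 it was 3.79 and passed, and every tumor value then lay above every non-tumor value in 2 of the 10 genes, *BGN* and *OGN*, as it did in 9.72% of all tested genes. Among its fits without 1 sample the lowest log2 fold change was 1.14, without T1. With the sample number as a fixed block it was 0.63.

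*DCN* encodes decorin, which binds collagen I fibrils and restrains TGF-beta and several receptor tyrosine kinases. It had the narrowest range of the class I genes, with 426 FPKM in N1, 384 in N9, 277 in N8 and 125 in N3. T3 fell short of all of these at 114 FPKM, while T1 reached 1268 and T10 3270.0. The tumor samples therefore lay on both sides of the non-tumor group (log2 fold change 1.51, SE 1.07, limma p = 0.192 before adjustment, exact permutation p = 0.343). The value was 0.47 without T10, 0.72 with the sample number as a fixed block and 2.89 without T3, and the gene was called in the last of these fits only.

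**Figure D2:**
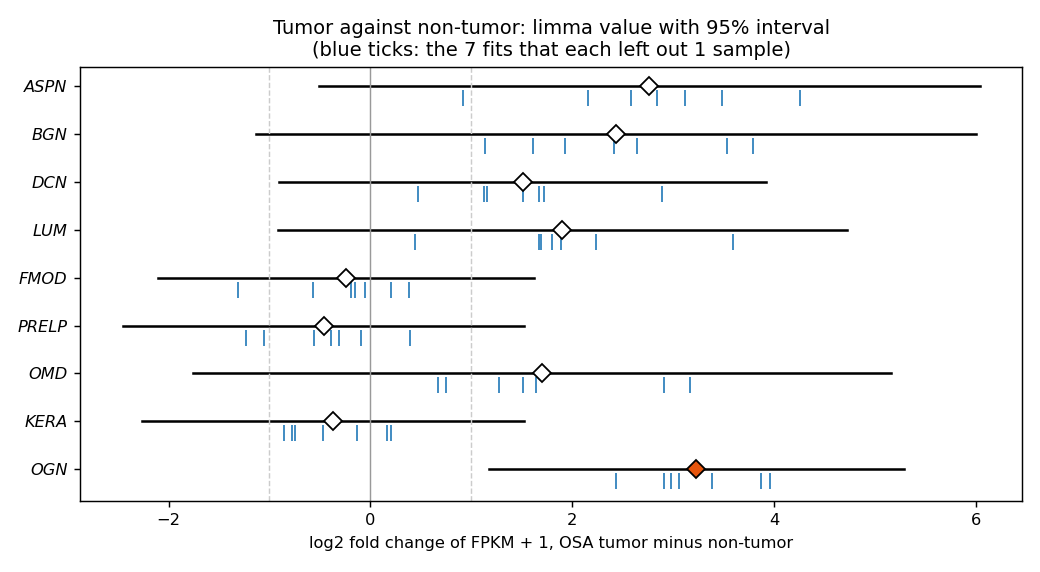
Log2 fold change of FPKM + 1 in OSA tumor minus non-tumor samples for the 9 tested genes, with the limma value as a diamond (orange where called), its 95% interval as a black line and the fits without 1 sample as blue ticks. Only the interval of *OGN* (1.17 to 5.28) lies wholly above 0.

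Of the class II genes, *LUM*, whose product lumican regulates the diameter of collagen fibrils, followed *DCN* most closely. Its FPKM were 277 in N1, 134 in N3, 111 in N9 and 88.7 in N8, against 3925 in T10, 718 in T1 and 48.9 in T3. As with *DCN*, T1 and T10 lay above and T3 below the whole non-tumor group. In T10 *LUM* had the rank of 12 and *DCN* that of 14 among all genes by FPKM. For *LUM* the log2 fold change was 1.90 (SE 1.25, limma p = 0.162 before adjustment, exact permutation p = 0.343), with 0.44 without T10 and 3.59, a call, without T3.

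*OMD* encodes osteomodulin, also called osteoadherin, a keratan sulfate proteoglycan of mineralized tissue made by osteoblasts. It was at 269.6 FPKM in N1, 18.2 in N9, 13.6 in N3 and 1.99 in N8, and at 296 in T1, 128 in T10 and 8.33 in T3. N1 held 88.9% of the non-tumor sum and was close to T1. The log2 fold change was 1.70 (SE 1.54, limma p = 0.296 before adjustment, exact permutation p = 0.514) and was called in 1 of the 7 fits without 1 sample, without N1, at 2.91. It was 0.67 without T1, 0.75 without N8 and 3.16 without T3.

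*FMOD* and *PRELP* were expressed at much lower levels and had T10 as the lowest rather than the highest tumor sample. *FMOD*, for fibromodulin, a collagen-binding proteoglycan of tendon and cartilage, was at 10.9 FPKM in N8, 8.59 in N1, 7.96 in N9 and 3.05 in N3, against 1.83 in T10, 2.66 in T3 and 28.9 in T1. *PRELP*, whose product anchors basement membranes to connective tissue, was at 21.3 FPKM in N8, 13.3 in N1, 11.02 in N9 and 2.03 in N3, against 1.30 in T10, 7.53 in T3 and 20.7 in T1. T10 was thus the lowest of all 7 samples in both genes. Their log2 fold changes were -0.24 (95% interval -2.11 to 1.62) and -0.46 (95% interval -2.45 to 1.52), with unadjusted p of 0.775 and 0.611 from limma. Both turned positive without T10, at 0.39 each, and *FMOD* also without T3, at 0.20.

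*KERA*, for the corneal proteoglycan keratocan, and *EPYC*, for epiphycan of growth plate cartilage, had the lowest means of the family over all samples. Within single samples *KERA* was not always so low, since in T10 it lay above *FMOD* and *PRELP* and in N8 above *OMD*. *KERA* was at 8.03 FPKM in N8, 3.88 in N9, 0.347 in N1 and 0.260 in N3, and at 3.43 in T10, 1.59 in T1 and 0.0215 in T3. Its log2 fold change was -0.37 (95% interval -2.27 to 1.52, unadjusted p = 0.669 from limma), and it turned positive without N8 (0.17) or without T3 (0.20). If the T3 value stands for 1 fragment, the step sizes put about 13 fragments behind N1 and behind N3, 164 behind N8 and 185 behind T10. *EPYC*, left out by the filter at a mean of 0.0596 FPKM, was listed at 0 in N1, N3 and T3, at 0.0541 FPKM in N8, 0.0451 in N9 and 0.0314 in T1, and at 0.287 in T10. By the same reading N8, N9 and T1 held 1 fragment each and T10 about 14. No difference in *EPYC* between the groups was detectable at this depth.

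The family as a whole ranged from 414 summed FPKM in N3, 479 in N8 and 594 in N9 to 3332 in N1 among non-tumor samples. In tumor it summed to 425 in T3, 6740.4 in T1 and 10412 in T10, so that T3 was at the level of N3. As a share of all FPKM this was 1.79% in T10, 0.618% in N1, 0.602% in T1 and 0.0273% to 0.0601% in the other 4 samples. In T1 a single feature of no gene symbol (ENSCAFG00000030140) held 47.3% of all FPKM. It held 12.5% in N8, 11.3% in N1 and at most 1.02% in the other samples. Without it the share of the family was 1.14% in T1, 0.696% in N1, 0.0312% in N8 and 1.79% in T10. Between 79.7% (T3) and 91.9% (N3) of the sum came from the leading 3 genes of a sample. *BGN* led in N1 (64.4%), T1 (61.8%) and T3 (35.3%), *DCN* in N8 (57.9%) and N9 (64.6%), and *LUM* in N3 (32.3%) and T10 (37.7%). *ASPN* made up 19.3% in T10 and at most 4.42% elsewhere, and *OGN* 17.5% in T3 and at most 5.27% elsewhere. The leading gene thus did not separate tumor from non-tumor samples.

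**Figure D3:**
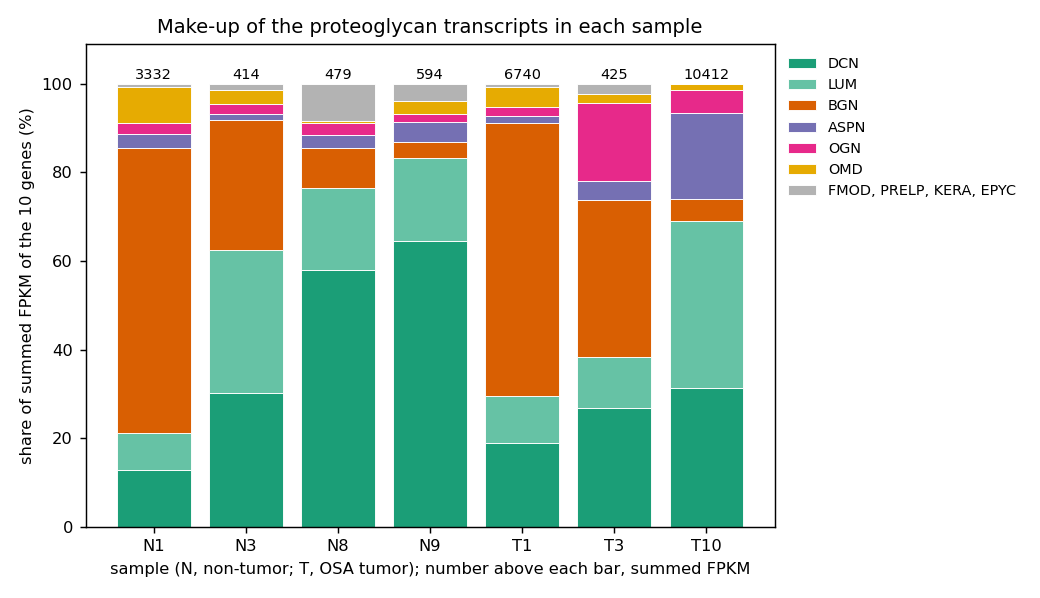
Share of each gene in the summed FPKM of the 10 proteoglycan genes, as stacked bars for each sample, with the summed FPKM above the bar. N1 and T1 were both mostly *BGN* (64.4% and 61.8%), and T10 was mostly *LUM*, *DCN* and *ASPN*.

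Ratios between genes within a library hardly depend on the scaling between libraries, and 6 were compared. As log2 ratios of FPKM + 1, the groups overlapped in all 6 (two-sided exact permutation tests, raw p from 0.286 to 0.686, adjusted over the 6 ratios 0.686 for each). No ratio could have reached 0.05, because the smallest p of these permutations is 0.0571. *BGN* to *DCN* was -4.08 in N9, -2.66 in N8, -0.03 in N3 and 2.33 in N1, against -2.65 in T10, 0.39 in T3 and 1.72 in T1. The non-tumor samples thus spanned 6.41 on the log2 scale, or 4.05 without N1, beside 4.37 for the tumor samples. *LUM* to *DCN* was the tightest, with a span of 2.04 over all 7 samples.

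*FMOD* to *LUM* and *PRELP* to *DCN* set T10 apart from all others. The FPKM of *FMOD* was 8.16 to 43.9 times below that of *LUM* in the other 6 samples and 2150.2 times below in T10. *PRELP* was 13.02 to 61.4 times below *DCN* in the other 6 samples and 2515.6 times below in T10. Without T10 the differences between the groups were -0.06 and -0.08 on the log2 scale. *ASPN* to *OGN*, from the same interval of chromosome 1, ran from -1.93 in T3 to 1.88 in T10, both of them tumor samples, and *ASPN* to *DCN* was highest in T10 (-0.70) and N1 (-2.05).

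**Figure D4:**
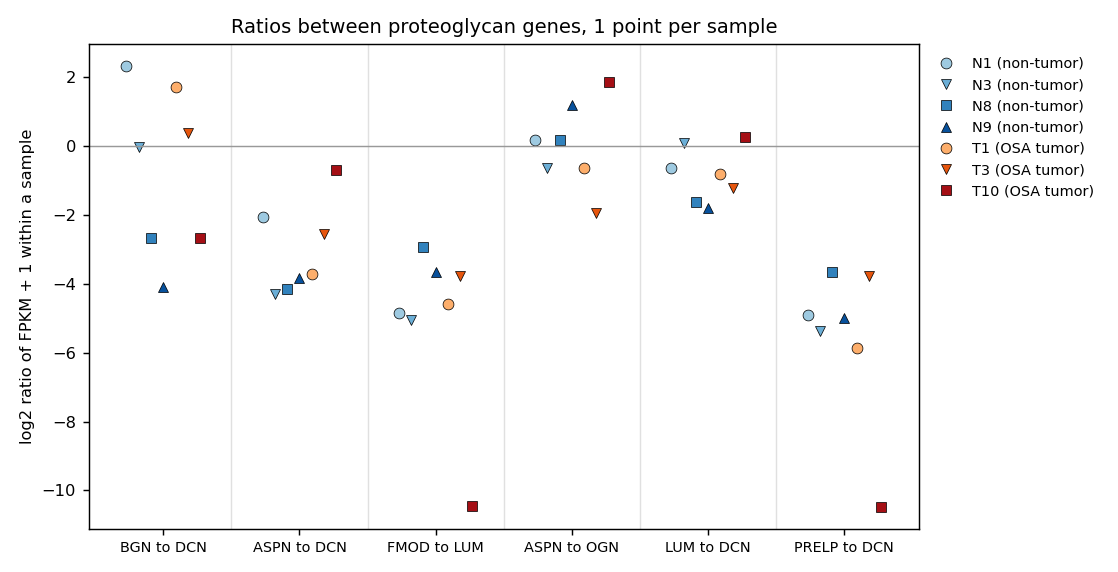
Log2 ratio of FPKM + 1 between 2 proteoglycan genes of the same sample, for 6 pairs, with 1 point per sample. The groups overlap in every pair, and T10 lies at -10.4 in *FMOD* to *LUM* and -10.5 in *PRELP* to *DCN*, far below the other samples.

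Likeness between profiles was measured as the root mean square difference of the centred log2(FPKM + 1) over the 7 samples, where a smaller value means more alike. Within the family the most alike were the neighbours *FMOD* and *PRELP* (0.63) and the neighbours *DCN* and *LUM* (0.74). Being neighbours did not always go with a like profile, since *KERA* and *LUM* were at 2.06, and *ASPN* and *OMD*, in 1 interval, at 1.96. *BGN* was nearest to *OMD* (1.25) in the family.

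Over all tested genes with a symbol, the nearest to *ASPN* was *POSTN* (0.84), the gene of periostin, a matricellular protein of periosteum, at 1170 FPKM in T10. It was followed by *RAB27B* (0.90), *C21orf91* (1.04), *COL12A1* (1.07) and *TNFAIP8L3* (1.08). *RAB27B* was low, with 0 FPKM in N3 and N8 and at most 2.11 in any sample but T10 (41.6). The nearest to *BGN* were *COL9A2* (0.52), *CREB3L1* (0.56), *COL8A2* (0.57), *VASN* (0.58) and *COL16A1* (0.60), which include 3 collagen chains and an endoplasmic reticulum transcription factor of osteoblasts, *CREB3L1*. Each of these 5 had its highest values in N1 and T1. The nearest to *DCN* were *SYTL2* (0.52), *MAMDC2* (0.56), *SNTB2* (0.62), *GNG13* (0.63) and *MCC* (0.64). *GNG13* was near the floor, at 0 FPKM in N3, N8, N9 and T3, 1.32 in N1, 5.86 in T1 and 8.80 in T10. The nearest to *OGN* were *KDELR3* (0.51), *FKBP7* (0.55), *PLOD2* (0.56), *PTN* (0.62) and *ALDH1L2* (0.65). Of these, *PLOD2*, which hydroxylates lysines of collagen telopeptides, was at 418 FPKM in T10, 177 in T1 and 146 in T3 and at 9.18 to 80.7 in non-tumor samples.

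In 6 lists of genes that work with the family, 63 genes were tested and 6 (9.52%) were called, all as higher in tumor, beside the 6.86% called over all genes. Of the 6 tested further small leucine-rich proteins 0 were called in either direction by limma (0 at an unadjusted p under 0.05), with a median log2 fold change of 0.47, which was -0.43 without T1 and 1.32 without N1. *ECM2*, in the same interval as *ASPN*, was at 17.8 FPKM in T3, 65.6 in T1 and 263 in T10 against 20.7 to 47.4 in non-tumor samples (log2 fold change 1.13). Its log2 fold change was 0.16 without T10, 2.07 without T3, where it was called, and -0.33 with the fixed block. *TSKU*, for tsukushi, was at 34.0 FPKM in N1 and 44.4 in T1 and at 1.70 to 5.15 in the other samples, and *PODNL1*, for a podocan-like protein, at 18.1 in N1, 24.998 in T1 and at most 1.17 elsewhere.

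Of the genes that build the sugar chains, 1 of 16 tested in chondroitin and dermatan sulfate synthesis was called, beside 6.86% of all tested genes (median log2 fold change 0.34, and 0.06 to 0.48 without 1 sample). This was *CHSY1*, chondroitin sulfate synthase, at 70.7 FPKM in T3, 60.7 in T10 and 38.2 in T1 against 7.87 in N9, 13.01 in N8, 25.4 in N3 and 25.5 in N1. All tumor values lay above all non-tumor values (log2 fold change 1.70, SE 0.54, unadjusted p = 0.0111 and adjusted p = 0.693 from limma). Of 6 tested genes of keratan sulfate synthesis 1 was called (median 0.18, and -0.04 without N9 to 0.40 without N1), *B4GALT4*, a galactosyltransferase of the chain, at 32.96 FPKM in T10, 22.3 in T1 and 19.9 in T3 against 12.4 in N1, 7.41 in N9, 7.06 in N3 and 4.05 in N8. Its groups did not overlap either, beside 5.85% of all tested genes with such groups in either direction (log2 fold change 1.63, SE 0.48, unadjusted p = 0.00783 and adjusted p = 0.693 from limma). Both were called in each of the 7 fits without 1 sample, but not with the sample number as a fixed block, where their log2 fold changes were 1.005 and 1.09.

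Of the 13 tested collagen chains, which include fibril-forming chains and collagen VI, 0 were called by limma (0 at an unadjusted p under 0.05), with a median log2 fold change of 1.89. The median was 0.75 without T1 and 3.21 without N1, and 8 were called without N1, in the fit that called 14.8% of all genes. *COL1A2*, a chain of collagen I, was at 5931 FPKM in N1 and 9139 in T1, 2285 in T10 and 342 in T3, against 46.9 to 450.0 in N3, N8 and N9. *COL1A1*, its partner chain, was listed at 0 in T1, where an exact 0 may be a failed estimate. *COL3A1* reached 2353 FPKM in T1 and 267 in T3, while it was at 1.14 in T10, the sample with the most *LUM* and *DCN*. Non-tumor values were 11.95 FPKM in N8, 45.9 in N9, 55.4 in N3 and 1420.1 in N1, so that T10 was the lowest of the 7.

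Of 10 tested large proteoglycans and link proteins, 3 were called, beside 6.86% of all tested genes (median 0.92, and 1.396 without T10). The link protein gene *HAPLN1* was at 144 FPKM in T10, 67.9 in T1 and 13.5 in T3, all above the 0.0843 to 10.4 of non-tumor samples (log2 fold change 4.35, SE 0.96, unadjusted p = 0.00133 and adjusted p = 0.693 from limma). Its groups thus did not overlap, as in 5.85% of all tested genes. Its relative *HAPLN3* had a log2 fold change of 2.36, and *ACAN*, the cartilage proteoglycan aggrecan, one of 3.03. *HAPLN1* was called in 7 of 7 fits without 1 sample, *HAPLN3* in 5 (not without T1 or T10) and *ACAN* in 2 (only without N1 or T3). *ACAN* was also not called when no filter was applied (unadjusted p = 0.0543 from limma) or with the fixed block. Of 12 tested processing proteases and signalling partners 1 was called (median 0.77, and 0.40 without T1), the growth factor *BMP2*, at 15.6 FPKM in T10, 11.2 in T3 and 10.5 in T1 against 1.52 to 7.69 in non-tumor samples (log2 fold change 1.597). It was not called without T10 (unadjusted p = 0.0567 from limma) or after rescaling to a common FPKM sum (unadjusted p = 0.0580 from limma), nor with the fixed block. Without N1 the calls were 4 of 12 in this list, 4 of 10 in the large proteoglycans and link proteins and 3 of 16 in chondroitin and dermatan sulfate synthesis, beside 14.8% of all genes. Among the marker lists, the chondrocyte genes had 1 of 6 tested called as higher, against 3.28% of all tested genes, with 3 of 6 without N1 and 2 of 6 without T3, and their summed FPKM of 207 in N1 stood against 4.90 to 17.6 in the other non-tumor samples and 74.5 to 242 in tumor. The fibroblast and tendon genes, where 1 of 10 was called as higher and 2 as lower, summed to 267 to 430.0 FPKM in non-tumor and 621 to 999 in tumor samples. Without 1 sample their calls ran from 0 (without T1, N8 or N9) to 3 (without N1 or T3) as higher and from 0 (without T1 or T10) to 2 as lower. Beside the 3.58% of all tested genes called as lower, the granulocyte list had 7 of 8, the muscle list 11 of 14, the erythroid list 7 of 11, the adipocyte list 4 of 6, the endothelial list 3 of 7, and the macrophage and osteoblast lists 0 of 7 and 0 of 8. Without 1 sample these counts ran from 4 to 8 for granulocytes, 6 to 13 for muscle, 2 to 10 for erythroid cells, 2 to 4 for adipocytes, 1 to 5 for endothelium and 0 to 3 for macrophages. Over all 13507 genes, those called as lower ran from 126 (without T10) to 1145 (without N1). Of the 8 osteoblast genes 0 were called as higher with all samples, 3 without N1 and 2 without T3. With the fixed block the counts called as lower were 0 for the erythroid, adipocyte and endothelial lists, 6 of 14 for muscle and 6 of 8 for granulocytes. That fit called 93 of the 13507 genes as lower, in place of 483. The part of these cell types in the values of the proteoglycan genes was not tested.

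**Figure D5:**
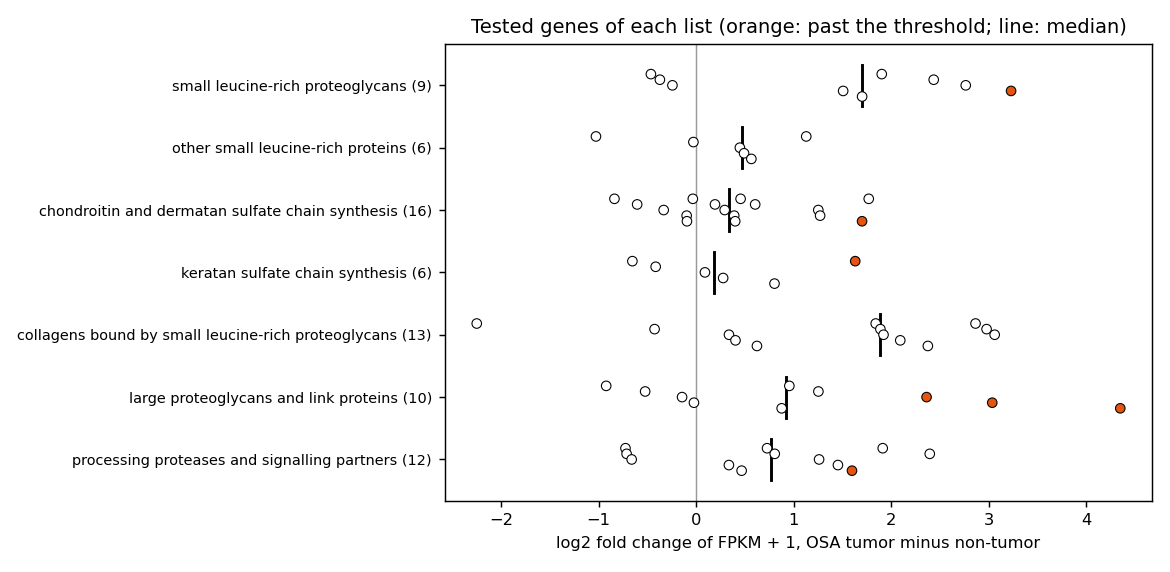
Log2 fold change of FPKM + 1, OSA tumor minus non-tumor, of every tested gene of the proteoglycan family and of the 6 lists, with called genes in orange, the list's median as a line and the number tested in brackets. With all samples, the medians run from 0.18 for keratan sulfate synthesis to 1.89 for the collagens, and both move when 1 sample is left out (to -0.04 and 0.75 at the lowest).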

How the data were processed

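RNAseq (total RNA, stranded paired-end kit, Illumina HiSeq) covered 4 non-tumor and 3 OSA tumor samples. After trimming (Trim Galore) and alignment to CanFam3.1 (TopHat2, Ensembl annotation), the authors deposited FPKM per gene and sample from Cufflinks/Cuffdiff; versions and scaling between libraries are not given in the sources used here. Fragment totals per sample were not used here; relative depth was read from genes under 0.15 FPKM. A second deposited table gave the gene intervals, a value of another kind (1 was added to each start), and its group means, fold changes and p-values were not used. All 7 per-sample columns were used and 0 left unused.

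Values were taken as log2(FPKM + 1), so fold changes understate low genes, and fitted with limma 3.58.1 (R 4.3.3, mean-variance trend) over genes whose mean reached 1 FPKM, unpaired, with Benjamini-Hochberg adjustment. Permutation tests were exact and two-sided (Python 3.11.15). The fit was tested on simulated data. P-values measure the spread between these samples only, since no source states that each came from a separate dog. Named genes are the 10 members, genes sharing an interval, list genes past the threshold (else at most the 3 with the highest mean) and the 5 nearest profiles. Members and lists were chosen with earlier results of these data known. Alternatives were other pseudocounts, filters and scalings, no trend, sample weights, blocking and leaving out each sample.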

Additional observations from a re-analysis of the deposited data

Results flagged for a closer look

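In the non-tumor samples, *OGN* stood apart in N1. On the log2(FPKM + 1) scale the gap between N1 (89.2 FPKM) and the next sample, N8 (12.8 FPKM), was 0.857 of the whole non-tumor range, above Dixon's critical value at 95% for 4 samples. Chance gives about 1 such flag in 20 groups, and 15 groups of values were looked at (9 genes and 6 ratios). Without N1 the log2 fold change of *OGN* was 3.96 in place of 3.23.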

How the results depend on the processing

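Under the 11 alternatives that kept all samples, *OGN* stayed higher and called in 10. The exception was the fit with the sample number as a fixed replicate block, which rests on the samples numbered 1 and 3 alone, where it was at 1.81 and the number of called proteoglycan genes was 0. In that fit *LUM* (-0.030), *OMD* (-0.25), *FMOD* (0.75), *PRELP* (1.05) and *KERA* (0.32) changed sign, and 231 genes in all were called in place of 926. Among the list genes it ended the calls of *CHSY1* (1.005), *B4GALT4* (1.09), *ACAN* (1.26) and *BMP2* (0.80), while *HAPLN1* (2.77) and *HAPLN3* (1.33) were called. Of the other alternatives with all samples, rescaling ended the call of *BMP2* and the lack of a filter that of *ACAN* (unadjusted p = 0.0543 from limma), and these ended no other of the 6 list calls. With the number as a random replicate block *FMOD* (0.078) and *PRELP* (0.030) changed sign. Same-numbered samples deviated together from their group means across genes (r of 0.42 for N1 and T1 and 0.21 for N3 and T3, the highest of each tumor sample). The number of called proteoglycan genes was 2 after rescaling to the same sum, which moved the median of all genes from -0.02 to 0.12 and the calls over all genes from 443 higher and 483 lower to 271 and 493, and 2 with sample weights, which called 1857 genes over all and 12 genes of the 6 lists. Without 1 sample the proteoglycan calls ran from 1 to 4, the list calls from 4 (without T10) to 21 (without N1), and the calls over all genes from 319 to 1997. These fits ran from -1.32 to 0.39 for *FMOD*, -1.23 to 0.39 for *PRELP* and -0.85 to 0.20 for *KERA*. They ran from -0.061 to 2.16 for the *BGN* to *DCN* ratio, -0.031 to 0.76 for *LUM* to *DCN* and -1.52 to 0.39 for *ASPN* to *OGN*. The cause of these shifts was not tested.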

Other observations

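T10, with the highest *LUM* and *DCN* of the 7 samples, was also the sample with the lowest *COL5A2*, a collagen V chain, picked here after its values were seen. *COL5A2* was at 2.16 FPKM in T10, 793 in T1 and 125 in T3, against 565 in N1, 31.8 in N3, 17.2 in N9 and 10.3 in N8. The collagen I chain *COL1A2* was at 2285 FPKM in T10 and *COL12A1*, of a fibril-associated collagen, at 346, its highest value.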
